A study of Mus musculus with 12 samples.

Results

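The genes of the mouse pigment cell were followed in skin bitten by ticks. They were Tyr, Tyrp1, Dct, Pmel, Mlana, Mitf, Slc45a2, Oca2, Sox10 and Mc1r, chosen by symbol, and all 10 were found among the 25070 genes of the table. Bulk RNA sequencing of 12 skin biopsies gave CPM, the reads of a gene scaled to a fixed total of reads per library. Naive skin had no bite (n = 2), and bitten skin came from a 1st exposure (n = 3), from mice labelled ticks 2x (n = 3) or ticks 3x (n = 3), and from 1 library labelled saliva immune. The labels of all 12 libraries, naive skin included, carry the time of 4 days after a tick bite. The labels do not state the strain, coat colour, sex or age of the mice, the tick species, how saliva immunity was raised or if the animals behind the libraries were separate. The p-values therefore measure the spread between these libraries, which may be technical. Sample titles put the 4 libraries of the 1st exposure and saliva immune groups in one numbered series and the other 8 in another, so a difference between the 1st exposure and any other fitted group cannot be told apart from title series.

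Melanocytes make melanin inside melanosomes, and in the trunk skin of mice most of them sit in hair follicles. There they pass pigment to the growing hair, and pigment is made in the growth phase of the hair cycle, when the follicle also builds the hair shaft. The transcription factor MITF switches on the genes of the pigment enzymes and of the melanosome, with SOX10 acting upstream of it, and the melanocortin receptor MC1R raises the activity of MITF through cyclic AMP.

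Of the 10 genes, 6 had a promoter window in the RefSeq table of GRCm38.p6, from 250 bases before the annotated start to 50 after it, and Mitf had 3 such windows, which made 8. Pmel, Mlana, Slc45a2 and Sox10 had no entry. The windows were searched on both strands for CATGTG, the E-box that MITF is known to bind. The 250 bases before the start of the 3 melanin enzyme genes and of the receptor gene are shown. These are the genes whose windows held CATGTG with a T before it. The window of Oca2, which held CATGTG without that T, is not shown. Capitals mark CATGTG or, on the other strand, CACATG. Tyr is read from chr7:87493513-87493762 (minus strand), Tyrp1 from chr4:80833963-80834212 (plus), Dct from chr14:118052247-118052496 (minus) and Mc1r from chr8:123406832-123407081 (plus).
Tyr: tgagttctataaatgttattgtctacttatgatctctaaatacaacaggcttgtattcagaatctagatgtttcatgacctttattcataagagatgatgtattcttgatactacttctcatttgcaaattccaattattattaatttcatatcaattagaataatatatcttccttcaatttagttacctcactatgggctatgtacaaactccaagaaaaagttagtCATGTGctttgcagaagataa
Tyrp1: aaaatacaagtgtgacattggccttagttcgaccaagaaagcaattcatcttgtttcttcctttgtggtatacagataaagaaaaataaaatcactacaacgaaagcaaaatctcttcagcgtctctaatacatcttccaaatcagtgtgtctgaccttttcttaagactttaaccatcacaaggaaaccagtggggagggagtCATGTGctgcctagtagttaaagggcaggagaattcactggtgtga
Dct: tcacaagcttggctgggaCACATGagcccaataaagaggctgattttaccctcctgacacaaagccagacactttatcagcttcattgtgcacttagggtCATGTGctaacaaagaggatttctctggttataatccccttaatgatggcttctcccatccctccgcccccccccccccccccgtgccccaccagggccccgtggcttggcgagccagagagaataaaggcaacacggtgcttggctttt
Mc1r: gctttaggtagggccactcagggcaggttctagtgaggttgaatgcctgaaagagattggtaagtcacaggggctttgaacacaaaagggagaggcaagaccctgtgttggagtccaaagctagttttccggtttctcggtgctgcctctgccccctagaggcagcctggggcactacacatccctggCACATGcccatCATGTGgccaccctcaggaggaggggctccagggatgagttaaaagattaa

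CATGTG was found in 5 of the 8 windows, those of Tyr, Tyrp1, Dct, Mc1r and Oca2, against 14.2% of all 32851 windows in the table. With a T before it (TCATGTG, the core of the M-box), it was found in 4 of 8 windows, against 3.77% of all. The matches of TCATGTG are part of those of CATGTG. Tyr and Tyrp1 shared the 11 bases AGTCATGTGCT around the match, a run present in 7 of all windows (0.0213%), and Dct shared 10 of them, GTCATGTGCT (0.186% of windows). These runs were read off the same sequences around the M-box core and were not chosen beforehand. CATGTG was searched for as a known site of MITF, which switches on pigment genes. The shares over all windows are therefore descriptions and carry no test of enrichment. The match began 21 bases before the annotated start in Tyr, 46 in Tyrp1, 150 and 232 in Dct, 51 and 62 in Mc1r and 186 in Oca2. ACAAAG or ACAATG, letters found in sites of SOX proteins, occurred in 3 of 8 windows, against 28.6% of all. A match describes letters in a window and was not tested for binding.

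**Figure D1:**
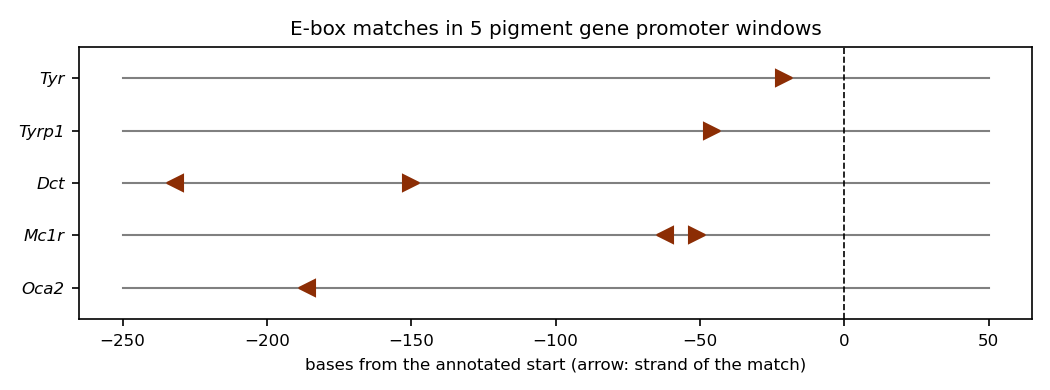
Positions of CATGTG in the promoter windows of 5 pigment genes. The x axis is the distance in bases from the annotated start (dashed line), each grey line is a window from 250 bases before to 50 after it, and each arrowhead is a match pointing along its strand. Tyr and Tyrp1 hold a single match within 50 bases of the start, while Dct and Mc1r hold a pair on opposite strands.

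The libraries held between 12.5 M and 29.8 M reads, estimated from the table, and 3 reads, used as the detection floor, were between 0.101 and 0.24 CPM. Skin markers were high in every library, with Krt5 between 1660 and 4850 CPM and Col1a1 between 691 and 3370 CPM. Hair shaft content differed within every group. It was measured as the mean log2(CPM + 1) of 20 genes of the hair-forming follicle, mainly hair keratins, none of them a pigment gene. The mean was 6.31 and 0.91 in the naive libraries, 7.78, 8.2 and 1.14 in the 1st exposure, 7.6, 1.78 and 0.72 in ticks 2x, 4.0, 5.38 and 0.79 in ticks 3x and 0.68 in the saliva immune library. A gap between 1.78 and 4.0 left 6 libraries on the hair-rich side and 6 on the hair-poor side, with at least 1 library of every replicated group on each. This division was read from the hair shaft genes after their values were seen.

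The 3 melanin enzyme genes differed widely between libraries of the same group. Tyr encodes tyrosinase, the rate-limiting enzyme that oxidises tyrosine (chromosome 7, 87424771 to 87493512, GRCm38.p6). It was at 20.9 and 2.6 CPM in naive skin, 93.5, 156 and 5.18 CPM in the 1st exposure, 55.4, 3.33 and 4.76 CPM in ticks 2x, 9.94, 12.1 and 3.56 CPM in ticks 3x and 6.42 CPM in the saliva immune library. Every replicated group thus held at least 1 high and 1 low library, and the groups overlapped. As group levels, Tyr was at 11.7 ± 12.9 CPM in naive skin (SD, n = 2), 84.8 ± 75.7 CPM in the 1st exposure (n = 3), 21.2 ± 29.6 CPM in ticks 2x (n = 3) and 8.53 ± 4.43 CPM in ticks 3x (n = 3). No neighbours in this order differed beyond their spread.

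Tyrp1, an enzyme of the later steps toward brown and black eumelanin (chromosome 4, 80834123 to 80851736), was at 44.4 and 5.51 CPM in naive skin, 350, 608 and 2.5 CPM in the 1st exposure, 196, 2.17 and 3.17 CPM in ticks 2x, 16.6, 34.5 and 3.79 CPM in ticks 3x and 1.37 CPM in the saliva immune library. Dct, the dopachrome tautomerase that acts between them (chromosome 14, 118012790 to 118052246), was at 62.7 and 16.3 CPM in naive skin, 448, 787 and 5.26 CPM in the 1st exposure, 255, 1.95 and 5.28 CPM in ticks 2x, 24.6, 43.5 and 8.57 CPM in ticks 3x and 3.82 CPM in the saliva immune library. In both genes the libraries with the highest level were replicates 1 and 2 of the 1st exposure and replicate 1 of ticks 2x, and the third library of the 1st exposure lay among the lowest. From the lowest to the highest library the CPM differed 60-fold for Tyr, 445-fold for Tyrp1 and 402-fold for Dct.

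The enzyme genes did not keep a fixed ratio to each other. Dct lay between 2.47 and 5.05 times the CPM of Tyr in the 6 hair-rich libraries, and between 0.588 and 6.28 times in the 6 hair-poor ones. The value of 6.28 belonged to naive replicate 2, where Dct was at 16.3 CPM with Tyr at 2.6 CPM, and the next highest hair-poor value was 2.41. Tyrp1 lay between 1.67 and 3.9 times Tyr on the hair-rich side and between 0.213 and 2.12 times on the other.

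Genes of the melanosome itself followed the same libraries. Pmel, whose product forms the fibrils on which melanin is laid down (chromosome 10, 128695888 to 128720238), was at 32.6 and 5.27 CPM in naive skin, 233, 449 and 3.88 CPM in the 1st exposure, 143, 1.27 and 3.29 CPM in ticks 2x, 12.4, 20.9 and 2.64 CPM in ticks 3x and 2.22 CPM in the saliva immune library, a 354-fold range. Its annotated span overlaps Rab5b, Cdk2 and Dgka, and whether the counting used strand is not given in the sources used here. Mlana, a small melanosomal protein that acts with PMEL (chromosome 19, 29697541 to 29708447), was at 45.9 and 80.8 CPM in replicates 1 and 2 of the 1st exposure and was listed at 0 in replicate 3. In the other groups it was at 9.57 and 0.4 CPM in naive skin, 25.8, 0.317 and 0.435 CPM in ticks 2x, 2.97, 3.13 and 0.847 CPM in ticks 3x and 0.117 CPM in the saliva immune library, which was at its floor.

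Both transporter genes were near or below the floor in the hair-poor libraries. Slc45a2, a melanosomal transporter that affects its pH (chromosome 15, 11000721 to 11029233), was at 8.19 and 0.479 CPM in naive skin, 34.5, 54.7 and 0.0864 CPM in the 1st exposure, 20.9 CPM in ticks 2x replicate 1 and 2.73 and 2.76 CPM in ticks 3x replicates 1 and 2, and was listed at 0 in the other 4 libraries. Oca2, which encodes a melanosomal anion channel and is the gene of the pink-eyed dilution locus (chromosome 7, 56239593 to 56536518), was at 5.21 CPM in naive replicate 1, 37.4, 61.8 and 0.302 CPM in the 1st exposure, 19.6 CPM in ticks 2x replicate 1 and 1.22 and 3.23 CPM in ticks 3x replicates 1 and 2. It was listed at 0 in the other 5 libraries. A listed 0 limits the level to the floor of that library, for counting error only.

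Mc1r, the receptor for melanocyte-stimulating hormone (chromosome 8, 123407082 to 123410744), was at 5.49 and 0.292 CPM in naive skin, 16.7, 24.8 and 0.0469 CPM in the 1st exposure, 8.89, 0.159 and 0.25 CPM in ticks 2x, 3.11, 1.22 and 0.747 CPM in ticks 3x and 0.597 CPM in the saliva immune library. As for the enzymes, the 3 highest libraries were replicates 1 and 2 of the 1st exposure and replicate 1 of ticks 2x. Ticks 3x replicate 1 lay above replicate 2, against the order of the enzymes, and the hair-poor libraries stood in another order than for Tyr. The level of replicate 3 of the 1st exposure was that of a single read.

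The transcription factor genes varied less than the enzyme genes, Mitf the least. Mitf (chromosome 6, 97807002 to 98021360) was at 3.19 and 3.75 CPM in naive skin, 6.33, 8.36 and 2.59 CPM in the 1st exposure, 4.23, 1.32 and 1.61 CPM in ticks 2x, 2.38, 3.18 and 2.04 CPM in ticks 3x and 2.3 CPM in the saliva immune library, a 6.33-fold range. Its span overlaps the predicted gene Gm15531. Mast cells and macrophages also express Mitf, and CPM of the 5 defining mast cell markers summed to between 177 and 214 in naive skin, 79.2 and 405 in the 1st exposure, 425 and 508 in ticks 2x and 242 and 667 in ticks 3x, with none at 0. The corresponding macrophage sums lay between 222 and 2010 CPM over the 12 libraries. The library with the highest Mitf, replicate 2 of the 1st exposure, had the lowest sum of both, and their part in the Mitf level was not tested.

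Sox10 (chromosome 15, 79154913 to 79164490) was at 14.5 and 14.9 CPM in naive skin, 12.8, 19.1 and 7.85 CPM in the 1st exposure, 9.34, 1.11 and 7.7 CPM in ticks 2x, 5.89, 7.25 and 10.3 CPM in ticks 3x and 6.12 CPM in the saliva immune library. The naive libraries were alike in Sox10 while they differed in Tyr, and a single library, ticks 2x replicate 2, lay far below the rest. From that library to the highest, Sox10 had a 17.2-fold range, against 60-fold for Tyr. Schwann cells of skin nerves also express Sox10. Of their markers, Prx, a protein of the myelinating cell, was at 28.7 and 39.6 CPM in naive skin, 21.7, 13.4 and 32.9 CPM in the 1st exposure, 20, 6.5 and 40 CPM in ticks 2x, 12.3, 29.5 and 32.4 CPM in ticks 3x and 28.7 CPM in the saliva immune library. Its lowest level of the 12 was in the library with the lowest Sox10, while the library with the highest Sox10 was at 13.4 CPM. Mbp lay between 19.8 and 81.3 CPM and Mag between 0.334 and 3.54 CPM. Unlike Prx, both were lowest in the library with the highest Sox10, and at 62.4 and 1.53 CPM in the one with the lowest. The part of Schwann cells in the Sox10 level was not tested. In bulk skin, fewer cells of a type and less RNA per cell cannot be told apart.

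**Figure D2:**
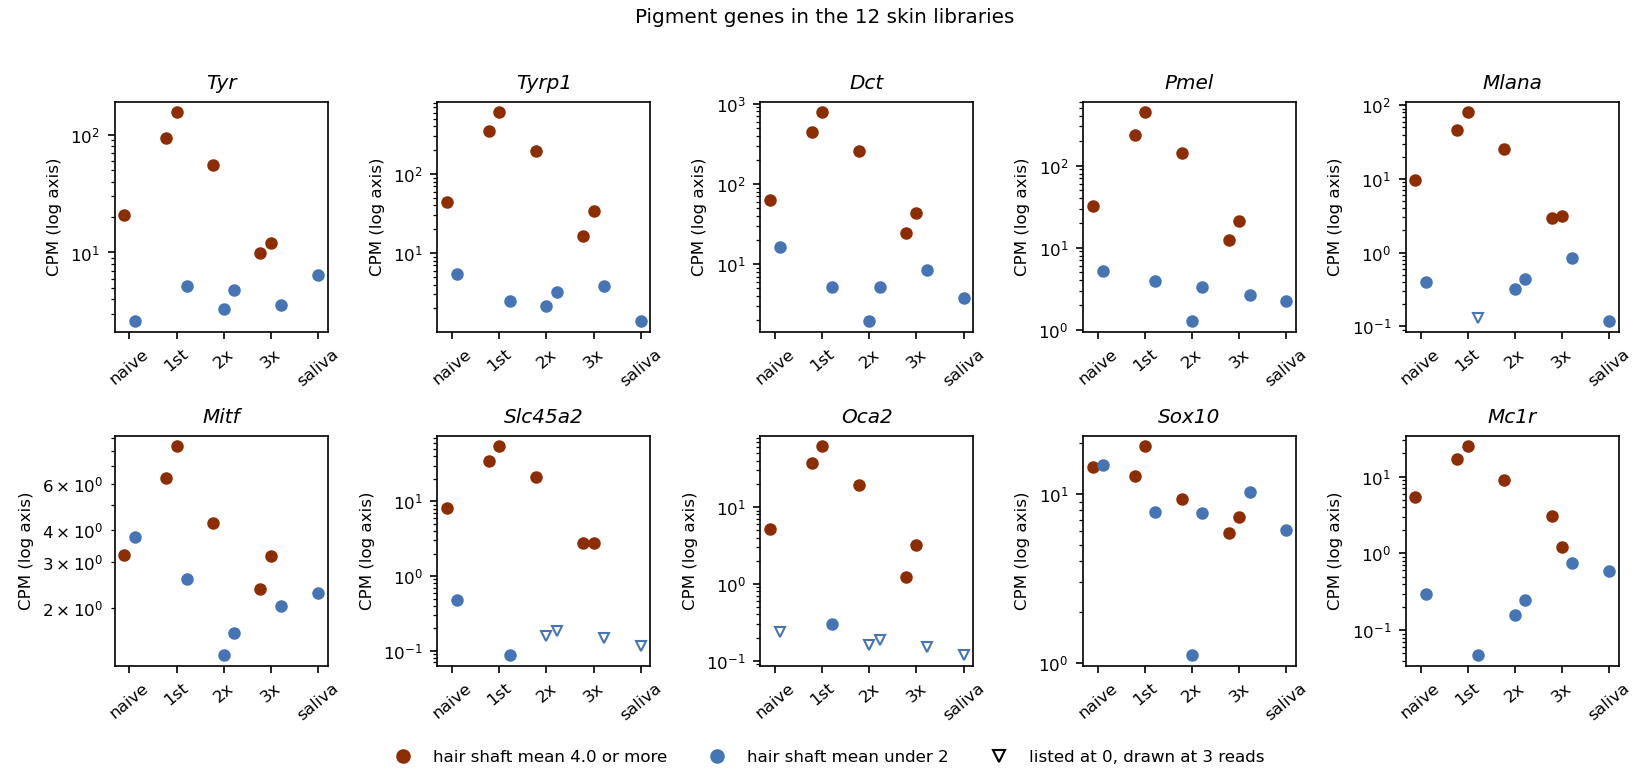
Level of each of the 10 pigment genes in the 12 libraries, in CPM on a log axis that differs between panels. Points are single libraries, red for the hair-rich and blue for the hair-poor side, and open triangles are libraries listed at 0, drawn at the level of 3 reads. Every replicated group holds red and blue points, and for 8 genes all red points lie above all blue ones, with overlap in Mitf and Sox10.

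Levels between genes were compared per kilobase of exon, taken as the union of all annotated exons of a gene. That length was 7.11 kb for Tyr, 6.2 kb for Mitf and 5.89 kb for Dct, against 2.29 kb for Pmel. It can exceed the length of the transcript made, so the order of genes depends partly on annotation. As the mean over the 12 libraries, Tyrp1 had the highest level, at 37.4 CPM per kilobase, followed by Pmel at 33.1 and Dct at 23.4. Tyr, although rate-limiting, was at 4.37 CPM per kilobase, Sox10 at 3.19, Mc1r at 1.43 and Mitf, the lowest, at 0.555. In replicate 2 of the 1st exposure the 3 highest were at 215, 196 and 133 CPM per kilobase. In the saliva immune library the order differed, with Sox10 highest at 2.01, then Pmel at 0.97, Tyr at 0.903, Dct at 0.648 and Tyrp1 at 0.483 CPM per kilobase.

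Across the 12 libraries the log2(CPM + 1) values of the 8 genes other than Mitf and Sox10 correlated pairwise with r between 0.95 and 0.99 (28 pairs). Mitf correlated with these 8 at r between 0.85 and 0.92, and Sox10 with the other 9 genes at between 0.5 and 0.74. These are descriptions over 12 libraries that fall on 2 sides and share 1 table, and carry no test. The ratio of Dct to Sox10 lay between 4.17 and 41.3 in the hair-rich libraries and between 0.624 and 1.76 in the hair-poor ones, without overlap.

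Hair-rich and hair-poor libraries did not overlap for 8 of the 10 genes (3.55% of all 17064 genes tested were higher in all 6 hair-rich libraries than in all 6 hair-poor ones). Among the 8, Mlana (at most 0.847 CPM), Slc45a2 (0.479), Oca2 (0.302) and Mc1r (0.747) stayed under 1 CPM in all hair-poor libraries. They passed the filter for testing only through hair-rich libraries, which favours a lack of overlap and a rising slope. For these genes both are descriptions. Tyrp1 lay between 16.6 and 608 CPM, with a median of 120, on the hair-rich side and between 1.37 and 5.51 CPM, with a median of 2.83, on the other. For Dct the ranges were 24.6 to 787 CPM and 1.95 to 16.3 CPM. Mitf overlapped, with 2.38 to 8.36 CPM against 1.32 to 3.75 CPM, and so did Sox10, with 5.89 to 19.1 CPM against 1.11 to 14.9 CPM. Within the hair-rich side, 8 genes (all but Sox10 and Mc1r) stood in exactly the order of the hair shaft mean, from ticks 3x replicate 1 up to replicate 2 of the 1st exposure. Of all tested genes 4.08% did so. That order ran group by group, from ticks 3x through naive skin and ticks 2x to the 1st exposure, which is of the other title series. Between groups, hair content on this side therefore cannot be told apart from group or title series. Spearman's rho over these 6 libraries was 0.83 for Sox10 and 0.94 for Mc1r. Within the hair-poor side it lay between -0.66 (Mc1r) and 0.39 (Oca2) for the 10 genes, so the order there was not that of the hair shaft genes. As the libraries fall on 2 sides, no correlation over all 12 is given.

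**Figure D3:**
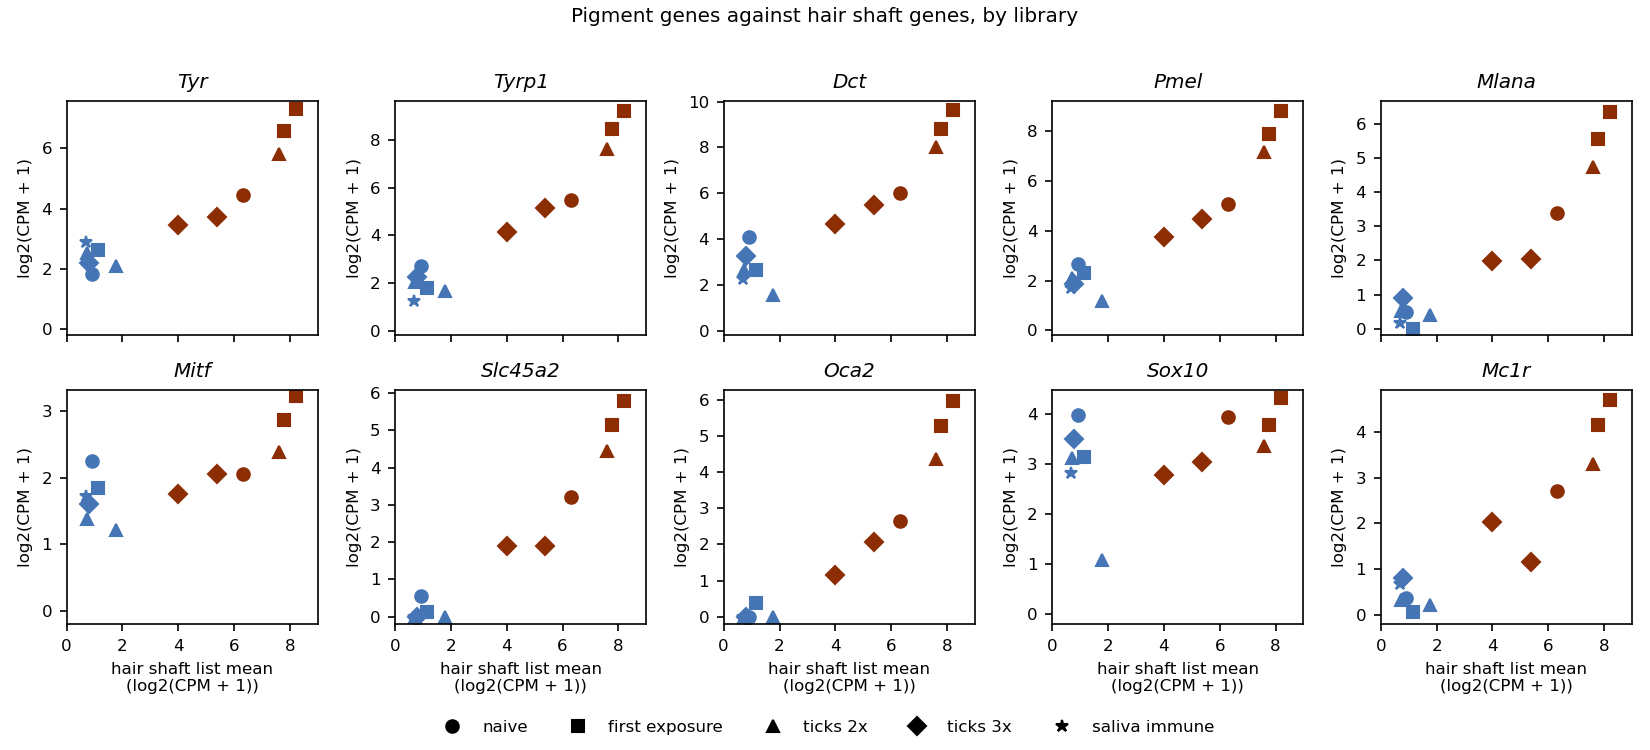
Level of each pigment gene, as log2(CPM + 1), against the mean log2(CPM + 1) of the hair shaft genes, with 1 point per library. Shapes give the group, and red and blue the hair-rich and hair-poor side. On the red side the points climb together in the 8 genes that follow the hair shaft order, while the blue points, between 0.68 and 1.78 on the x axis, show no such order.

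In a limma fit over 11 libraries, with the 4 replicated groups as factors, the slope on the hair shaft mean was above 0 for all 10 genes and passed the threshold (p below 0.05 after Benjamini-Hochberg adjustment over every gene tested) for 9. Of all genes tested, 15.2% passed, 12.6% rising with the hair shaft mean and 2.63% falling with it. Rising genes made up 82.7% of the calls, against 70.3% with median-of-ratios scaling and 63.2% with quantile normalization. Every fitted group held libraries on both sides of the gap in hair content. The slope therefore mostly contrasts the hair-rich with the hair-poor side and does not show a graded rise within either. It is given in log2 units of the gene per log2 unit of the hair shaft mean. It was highest for Tyrp1 at 0.84 (SE 0.076, adjusted p = 0.000165), followed by Dct at 0.77 (SE 0.1, adjusted p = 0.00138) and Pmel at 0.75 (SE 0.077, adjusted p = 0.000348). Tyr rose by 0.54 per unit (SE 0.045, adjusted p = 0.000107). This order changed when 0.1 in place of 1 was added to the CPM. Among the 10 genes, Oca2 (0.86), Slc45a2 (0.85) and Mlana (0.75) then had the steepest slopes, ahead of Tyrp1 (0.69), Pmel (0.62) and Dct (0.61).

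The melanosomal genes Mlana, Slc45a2 and Oca2 rose by 0.67, 0.66 and 0.64 per unit, and the receptor gene Mc1r by 0.48 (adjusted p between 7.05e-05 and 0.0019 by limma). The median slope of the 10 genes was 0.65, against 0 over all genes and 0.52 at the 99th percentile of all genes. Mitf rose by 0.13 (SE 0.034, adjusted p = 0.0375). That call was lost in 14 of 22 alternatives, among them leaving out any single library of the 1st exposure (adjusted p up to 0.264), of ticks 2x (up to 0.176), or ticks 3x replicate 1 or 2, and the adjusted p over all alternatives lay between 0.00685 and 0.359. Sox10 had a slope of 0.08 (SE 0.071, adjusted p = 0.451) and passed in none of the 22. The other 8 genes passed in all 22. In naive skin, ticks 2x and ticks 3x alone, which form a single title series, those 8 passed while 493 genes passed in all.

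**Figure D4:**
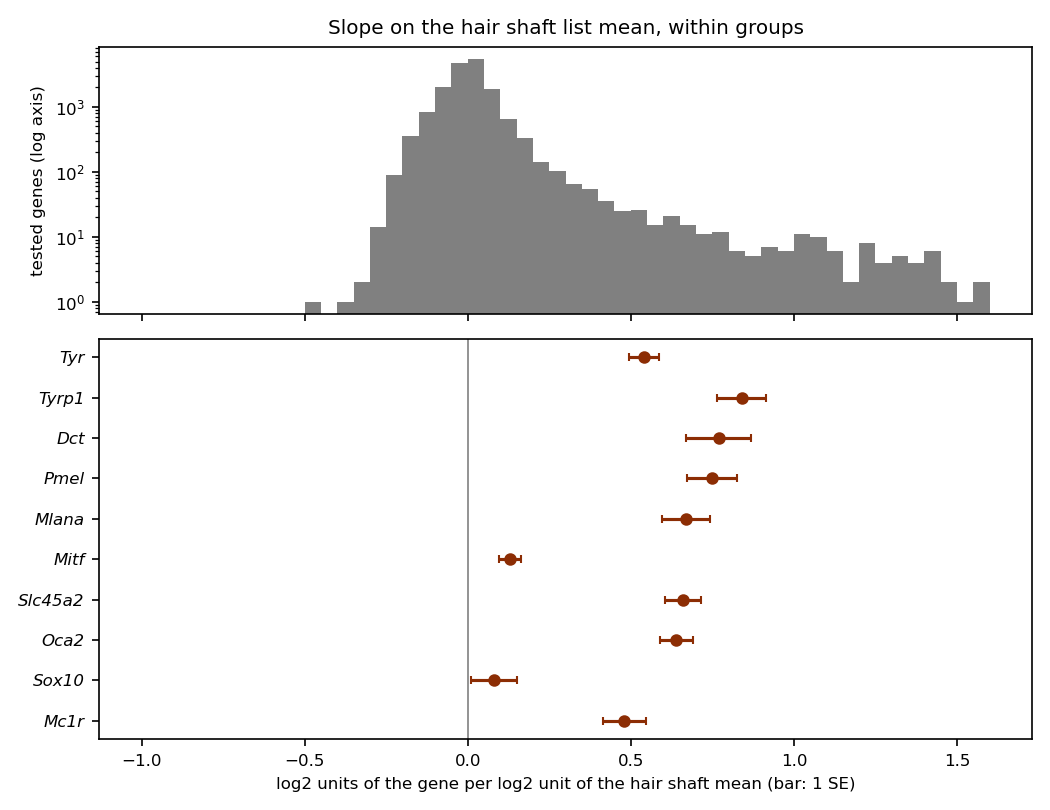
Slopes on the hair shaft mean from the fit with groups as factors, in log2 units per log2 unit. The upper panel counts all 17064 tested genes by slope on a log axis, and the lower panel gives the 10 pigment genes with bars of 1 SE. Mitf at 0.13 and Sox10 at 0.08 lie near 0, and the other 8 lie between 0.48 and 0.84, in the sparse right part of the upper panel.

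Further genes of the melanosome rose along with them. Of 18 other pigment cell genes, 13 passed as rising and 0 as falling (12.6% and 2.63% of all genes), with a median slope of 0.24. Trpm1, a channel of the pigment cell, had the steepest slope at 0.88 (SE 0.041, adjusted p = 1.8e-06) and was at 303 CPM in replicate 2 of the 1st exposure and 1.73 CPM in replicate 3. Slc24a5, an ion exchanger that sets pigment amount, rose by 0.70, and its relative Slc24a4 by 0.58. Gpr143, a receptor on the melanosome, and Gpnmb, a glycoprotein related to PMEL, each rose by 0.39 per unit. Gpnmb is also made by macrophages and stayed at 30.9 CPM or more in every library.

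Of 25 melanosome transport genes, which include the general trafficking complexes, 3 passed as rising and 0 as falling, with a median of 0.01. That share is near the 12.6% of all genes that rose. Mlph, the melanophilin that ties melanosomes to the motor protein, rose by 0.41 (SE 0.065, adjusted p = 0.00371), Myo5a, that motor, by 0.18, and the third was Bloc1s2, a subunit of a sorting complex, by 0.08. It was named because it completes the count, after its value was seen. The call of Myo5a was lost without replicate 3 of the 1st exposure (adjusted p = 0.061), and within the title series of naive skin, ticks 2x and ticks 3x both Myo5a (0.116) and Mlph (slope 0.34, 0.0918) missed the threshold. Rab27a, the third part of the transport complex, had a slope of 0 (SE 0.025, adjusted p = 0.96) and lay between 24.4 and 44.3 CPM.

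Among signals that act on pigment cells, 8 of 14 tested genes passed as rising and 0 as falling, with a median of 0.13 (12.6% and 2.63% of all genes). Kit, the stem cell factor receptor of melanocytes and mast cells, rose by 0.21 (adjusted p = 0.00069). It was at 41.6 and 14.6 CPM in naive skin, 51, 58.6 and 16 CPM in the 1st exposure, 45.5, 21.9 and 24 CPM in ticks 2x and 36.3, 33.4 and 18.4 CPM in ticks 3x. The mast cell marker sums of these libraries, in the same order, were 214 and 177 CPM, 161, 79.2 and 405 CPM, 508, 480 and 425 CPM and 667, 442 and 242 CPM. The library with the higher sum had the higher Kit in naive skin, and the one with the highest sum had the highest Kit in ticks 2x and ticks 3x, while in the 1st exposure it had the lowest Kit. The part of mast cells in the Kit level was not tested. Its ligand gene Kitl rose by 0.08 (adjusted p = 0.0176), a call lost without replicate 1 (0.051) or 3 (0.0834) of the 1st exposure or ticks 2x replicate 1 (0.11), and within the title series of naive skin, ticks 2x and ticks 3x (0.135). Corin, the dermal papilla protease that limits the pigment-switching agouti signal, rose by 0.56 (adjusted p = 0.000107). The endothelin receptor gene Ednrb rose by 0.18 (adjusted p = 0.0283). Its call was lost without either naive library (0.0711 and 0.0713), without any library of the 1st exposure (up to 0.124), without ticks 2x replicate 3 (0.0547) and within that title series (0.202). The ligand gene Edn3 had a slope of 0.19 (adjusted p = 0.0622) and passed in 3 of 21 alternatives. Pomc, the precursor gene of melanocyte-stimulating hormone, did not exceed 0.117 CPM, and Asip was not analysed here.

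Other cell types were counted in the same fit, in which 12.6% of all genes rose and 2.63% fell. Of 11 genes of the inner root sheath, the follicle layer that guides the hair, 10 rose (median slope 1.39). Of 13 tested dermal papilla genes 4 rose and 0 fell, Corin among the 4, and of 8 genes listed for bulge stem cells 4 rose and 2 fell. That list held the symbols Tcf3, among the 4 that rose, and Tcf4, and whether these symbols name bulge genes was not checked. Of 14 mast cell genes 1 rose, Kit, and 1 fell, and of 12 macrophage and 8 fibroblast genes 0 passed, with medians of -0.03 and -0.01. Of 8 basal keratinocyte genes 4 fell, and of 8 upper keratinocyte genes 3 fell. At an unadjusted p below 0.05, 5231 of all genes passed.

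The genes most like the pigment genes over the 12 libraries were taken by the correlation of their log2(CPM + 1) with the mean of the 10, among 11897 named genes with a mean of at least 5 CPM. The first 8 were Mycn (r = 0.993), Msi1 (0.992), Syt4 (0.991), Slc24a5 (0.99), Slc24a4 (0.99), Unc5b (0.989), Plekhg1 (0.988) and Krtap5-5 (0.988). Of these, Slc24a5 and Slc24a4 were in the list of pigment cell genes and Krtap5-5 is a keratin-associated protein of the hair. Mycn, a transcription factor of dividing progenitors, lay between 0.37 and 33.2 CPM. These likenesses are descriptions over 12 libraries on 2 sides of hair content and carry no test.

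Differences between the groups were compared to show whether exposure moved the pigment genes. None of the 10 genes was called in any of the 6 pairwise comparisons, nor in the test of any difference among the 4 groups. In the 1st exposure against naive skin, 9 of 10 lay higher, with a median log2 fold change of 2.00 against 0.08 over all genes, and 0 were called by limma (0.0117% of all genes were called). Tyr had the lowest p, with a log2 fold change of 2.34 (SE 1.517, adjusted p = 0.459), and Sox10 was at -0.22. At an unadjusted p below 0.05, 0 of the 10 and 2798 of all genes passed. Without replicate 3 of the 1st exposure, the hair-poor one, the median was 3.89 and 605 genes were called, none of them a pigment gene. It was 0.79 without naive replicate 2 or replicate 2 of the 1st exposure, 1.16 without replicate 1 of that group and 3.3 without naive replicate 1. With the hair shaft mean as a covariate, the median was 0.53.

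Ticks 2x differed from naive skin by a median of -0.35, with 2 of 10 higher and 0 called (0.0352% of all genes). Single libraries turned the direction of this median, which was 0.92, 0.52 and 0.33 without naive replicate 1, ticks 2x replicate 2 and ticks 2x replicate 3, and -1.48 and -1.68 without naive replicate 2 and ticks 2x replicate 1. Sox10 had an unadjusted p of 0.0439 at a log2 fold change of -1.45 (SE 0.623, limma adjusted p = 0.438). Its 3 ticks 2x libraries were at 9.34, 1.11 and 7.7 CPM, and the naive ones at 14.5 and 14.9 CPM. In ticks 3x against naive skin the median was -0.33, with 0 of 10 higher and 0 called (0.00586% of all genes), 0 of them at an unadjusted p below 0.05. This median was 0.83 and 0.07 without naive replicate 1 and ticks 3x replicate 3, and -1.54, -0.52 and -0.79 without naive replicate 2, ticks 3x replicate 1 and ticks 3x replicate 2. Sox10 was again the gene with the lowest p (log2 fold change -0.86, limma adjusted p = 0.842), and its ticks 3x libraries were at 5.89, 7.25 and 10.3 CPM. These comparisons share the naive libraries.

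Against the 1st exposure, all 10 genes lay lower in ticks 2x (median -2.14, -0.08 over all genes) and in ticks 3x (median -2.40, -0.04 over all genes), with 0 called in either (0% of all genes in each). At an unadjusted p below 0.05, 1 of 10 and 2710 of all genes passed for ticks 2x, and 0 of 10 and 3035 of all for ticks 3x. Mitf had the lowest p in both, with a log2 fold change of -0.99 (SE 0.396, adjusted p = 0.28) and -0.84 (SE 0.396, adjusted p = 0.295). The 1st exposure libraries are shared, and title series differs. Without replicate 3 of the 1st exposure the medians were -4.03 and -4.26, and 138 and 1421 genes were called, none of them a pigment gene. They were -1.13 and -1.27 without replicate 2 of the 1st exposure and -1.47 and -1.67 without replicate 1. For ticks 2x the median was -3.6, -1.4 and -1.53 without its replicates 1, 2 and 3. With the hair shaft mean as a covariate the medians were -0.76 and -0.78. Under limma's array weights, which let the libraries differ in reliability, 3 genes were called lower in ticks 3x: Tyr (log2 fold change -3.12, adjusted p = 0.0498), Mitf (-1.16, 0.0256) and Oca2 (-3.77, 0.046), while 5078 genes in all were called.

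Ticks 3x differed from ticks 2x by a median of -0.04, with 5 of 10 higher and 0 called (0% of all genes), and 0 of 10 and 878 of all genes passed at an unadjusted p below 0.05. The median lay between -0.97 (without ticks 2x replicate 2) and 1.13 (without ticks 2x replicate 1) on leaving out 1 library. Sox10 had the lowest p (log2 fold change 0.59, SE 0.557, adjusted p = 0.917). The test of any difference among the 4 groups called 0 of 10 pigment genes (0% of all genes), with adjusted p between 0.411 for Sox10 and 0.714 for Tyrp1, and 0 of 10 and 2627 of all genes at an unadjusted p below 0.05. The standard errors of the enzyme genes were between 1.357 and 2.393 log2 units over the 6 comparisons, so differences of that size were not detectable with these libraries. Larger ones also went uncalled, such as Dct at -2.96 in ticks 2x against the 1st exposure (SE 2.025, limma adjusted p = 0.484).

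**Figure D5:**
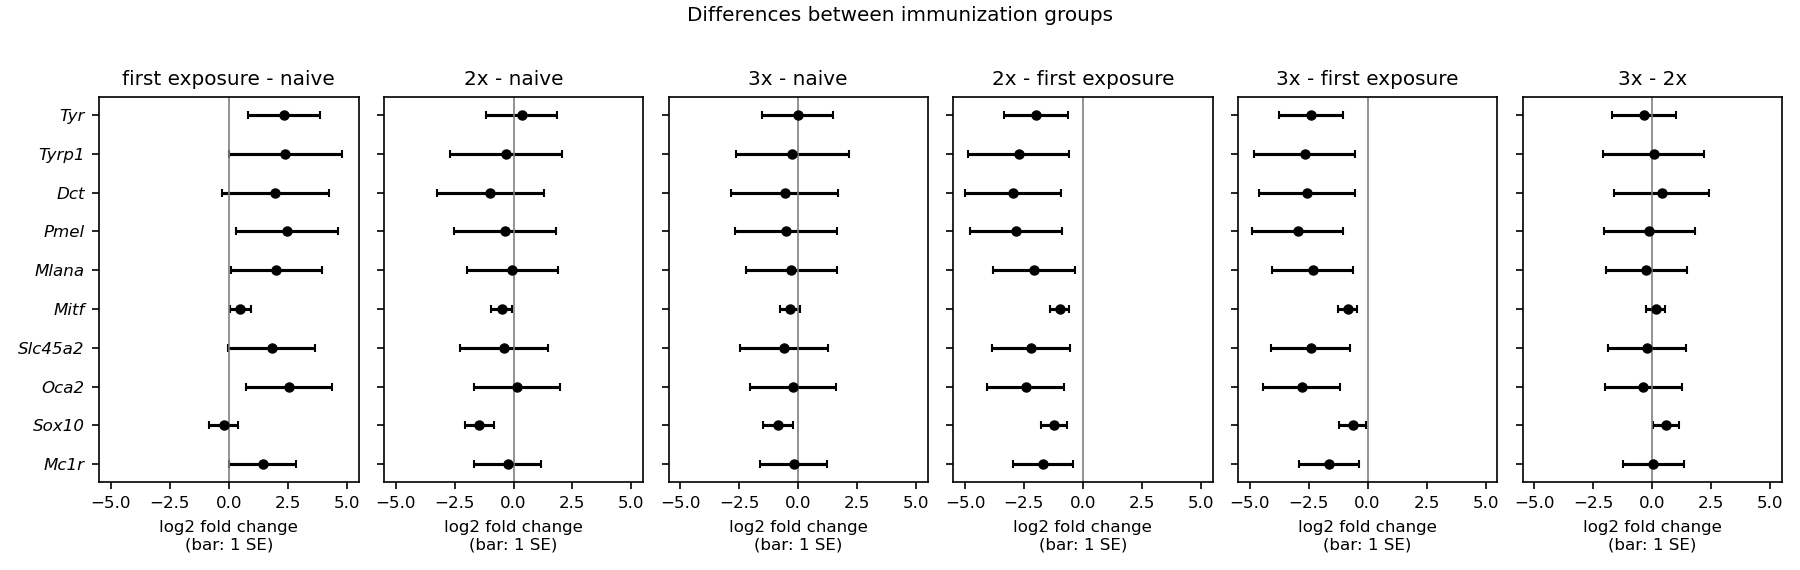
Log2 fold changes of the 10 pigment genes, on the log2(CPM + 1) scale, in the 6 comparisons between groups, as points with bars of 1 SE from limma. The first exposure has 3 libraries, as have 2x and 3x, and naive skin has 2. Mitf and Sox10 have the shortest bars, and none of the 60 values passed the threshold.

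The saliva immune library can only be described. It stood at the bottom of the hair shaft order, at 0.68, and its pigment genes lay within the range of the other 5 hair-poor libraries for 8 of 10. Tyr, at 6.42 CPM, was above their range of 2.6 to 5.18 CPM, and Tyrp1, at 1.37 CPM, was below their range of 2.17 to 5.51 CPM. Slc45a2 and Oca2 were listed at 0.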

How the data were processed

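The skin libraries were made from total RNA with a Qiagen kit and a standard Illumina protocol, per the labels' protocols. The submitters' processing notes name STAR, Partek 8.0.19 and GRCm38.p6; which annotation and read counter they used is not given in the sources used here. The authors deposited CPM for 25070 genes with 0.0001 added to every cell. Columns summed to between 998572 and 998966, and what set these sums is not given in the sources used here. No column was left out.

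Depth was estimated from the step between low CPM values. The step is the smallest value at least 0.5 times as common as the commonest, a rule set after values were seen. Between 73.4% and 79.3% of values between 0.01 and 3 CPM were whole multiples of it within 0.02 reads, so whole reads were not recovered and no count test was run. The floor of 3 reads covers counting error only.

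Values were tested as log2(CPM + 1) with limma 3.58.1 (R 4.3.3, trended prior variance) for the 17064 genes that reached 1 CPM in 2 or more of 11 libraries; all 10 pigment genes passed that filter. Mlana, Slc45a2, Oca2 and Mc1r passed it only through hair-rich libraries. P-values were adjusted over all genes (Benjamini-Hochberg) at 0.05. Fold changes on this scale understate changes of low genes. The saliva immune library (n = 1) entered no fit. The script was tested on simulated data. Coordinates are from RefSeq and exon lengths from GENCODE vM21, both on GRCm38. Tables were made with pandas 2.3.3 and numpy 2.4.6 in Python 3.11.15, and figures with matplotlib 3.10.9.

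The pigment genes and all 13 other gene lists were chosen with earlier results of these data known. The rule for naming genes took the 10 pigment genes for every comparison. For the hair shaft slope it added Kit, Kitl, Ednrb, Edn3, Asip, Pomc, Corin, Gpr143, Slc24a5, Trpm1, Gpnmb, Rab27a, Mlph and Myo5a, of which Asip was not analysed here and Pomc was under the filter, the 5 steepest called slopes of the pigment, transport and signal lists, and the 8 most similar genes. Part of the Schwann cell list is not reported here. Alternatives were pseudocounts of 0.5 and 0.1, other filters and scalings, array weights, fewer groups, covariates and leaving out each library.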

Additional observations from a re-analysis of the deposited data

How the results depend on the processing

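No paired analysis was possible because replicates were numbered by accession order alone, which ties no library to another group. The count of pigment genes called stayed at 0 in every group comparison under each alternative, except that array weights, which stopped before reaching their convergence tolerance, called 3 lower in ticks 3x than in the 1st exposure. The count for the hair shaft slope was 8 or 9 under all 22 alternatives, while the genes called in all ranged from 493 (1 title series) to 3381 (all 12 libraries), with 839 without replicate 3 of the 1st exposure and 1250 without ticks 2x replicate 1. Over all genes, the calls under alternatives ranged from 0 to 1753 in the 1st exposure against naive skin (2 as reported), 0 to 34 in ticks 2x against naive skin (6), 0 to 276 in ticks 3x against naive skin (1), 0 to 583 in ticks 2x and 0 to 5078 in ticks 3x against the 1st exposure (0 each), 0 to 1 in ticks 3x against ticks 2x (0) and 0 to 2217 in the test of any difference (0). Array weights gave the highest count in each but ticks 3x against ticks 2x. Without replicate 3 of the 1st exposure, 605, 138 and 1421 genes were called between that group and naive skin, ticks 2x and ticks 3x. Of the pigment genes' log2 fold changes under alternatives, 2 of 200 changed sign in the 1st exposure against naive skin, 24 of 200 in ticks 2x and 24 of 200 in ticks 3x against naive skin, 32 of 200 in ticks 3x against ticks 2x, and 0 in the comparisons of ticks 2x and ticks 3x with the 1st exposure; the cause was not tested.

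With a pseudocount of 0.1, Oca2 was at -0.32 in ticks 2x against naive skin, Tyr at 0.02, Oca2 at 0.06 and Mc1r at 0.05 in ticks 3x against naive skin, and Pmel at 0.04, Mlana at 0.23, Slc45a2 at 0.65 and Oca2 at 0.38 in ticks 3x against ticks 2x. With array weights, Sox10 was at 0.14 in the 1st exposure against naive skin, Tyr at -0.11 and Oca2 at -0.33 in ticks 2x against naive skin, Tyr at 0.28, Tyrp1 at 0.18, Oca2 at 0.01 and Mc1r at 0.16 in ticks 3x against naive skin, and Tyr at 0.39, Pmel at 1.07, Mlana at 0.51, Slc45a2 at 0.75 and Oca2 at 0.33 in ticks 3x against ticks 2x. With the hair shaft covariate, Mlana was at 0.10 in ticks 2x and Tyr at 0.08 in ticks 3x against naive skin. With quantile normalization, Mc1r was at 0.00 in ticks 3x against ticks 2x. The slope of Rab27a, 0.00, was at -0.01 with median-of-ratios scaling and quantile normalization and at -0.02 with array weights and within 1 title series.

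On leaving out 1 library at a time, Sox10 lay between -0.51 and 0.08 in the 1st exposure against naive skin, and the slope of Rab27a between -0.02 and 0.02. In ticks 2x against naive skin, Tyr lay between -0.97 and 1.64, Tyrp1 between -2.24 and 1.08, Dct between -2.95 and 0.27, Pmel between -2.22 and 0.83, Mlana between -1.52 and 1.40, Slc45a2 between -1.88 and 0.92, Oca2 between -1.32 and 1.46 and Mc1r between -1.42 and 0.91. In ticks 3x against naive skin, Tyr lay between -1.33 and 1.27, Tyrp1 between -1.66 and 1.15, Dct between -1.52 and 0.36, Pmel between -1.72 and 0.71, Mlana between -1.76 and 1.16, Slc45a2 between -1.93 and 0.70, Oca2 between -1.56 and 1.08 and Mc1r between -1.37 and 0.96. In ticks 3x against ticks 2x, Tyr lay between -1.06 and 0.80, Tyrp1 between -0.99 and 1.99, Dct between -0.85 and 2.36, Pmel between -1.28 and 1.71, Mlana between -0.99 and 1.18, Mitf between -0.08 and 0.51, Slc45a2 between -0.96 and 1.27, Oca2 between -1.11 and 1.08, Sox10 between -0.14 and 1.01 and Mc1r between -0.48 and 1.06. Where naive skin was left with 1 library, that library was assumed to vary like the other groups. Depth limits Slc45a2 and Oca2, which were listed at 0 in 4 and 5 of 12 libraries.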
